A study of Homo sapiens with 16 samples.

Results

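The 40 genes described here encode proteins that drive cells into mitosis, build and police the mitotic spindle, separate the chromosomes and divide the cell. They were taken by gene symbol from a list of mitotic functions, which was proposed with earlier results of these data known, and all 40 were found among the 60669 genes of the deposited tables. HMC3 is an established human cell line described by its labels as microglial. The study compared wild-type HMC3 cells with HMC3 cells labelled as a knockout of METTL3, the catalytic subunit of the enzyme complex that writes N6-methyladenosine (m6A) on RNA. No treatment, time point or other allele is given for either genotype. How the knockout was made and whether it is 1 clone are also not given in the sources used here, so a property of a clone and a property of the genotype cannot be told apart.

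RNA of each genotype was made into libraries of 2 types. Smart-seq2, which copies polyadenylated RNA, was used for 5 wild-type and 5 knockout-labelled libraries. Depletion of ribosomal RNA followed by a directional kit was used for 3 wild-type and 3 knockout-labelled libraries. The rRNA-depleted libraries were read as TPM, a gene's share of a library's transcripts after division by gene length, so TPM can be compared between genes. The poly(A) libraries were used through the authors' deposited table of a single comparison, with 1 log2 fold change per gene and no value for a single library. A positive value in the authors' deposited table was taken as higher in knockout, which the table itself does not state.

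Entry into mitosis is set off by the kinase CDK1 bound to cyclin B, which CDC25 phosphatases release from inhibitory phosphorylation. Polo-like and Aurora kinases then mature the centrosomes, assemble the spindle and correct faulty attachments of chromosomes to it. The spindle checkpoint holds back the anaphase-promoting complex (APC/C) until every kinetochore is attached. Once it is released, the APC/C with its activator CDC20 marks securin and cyclin B for destruction and anaphase begins. Transcripts of these genes rise together from the G2 phase of the cell cycle, and many of their promoters carry a cell cycle genes homology region (CHR), bound by the MuvB complex with B-MYB and FOXM1, and CCAAT boxes bound by NF-Y. In bulk RNA of this kind, fewer cells in mitosis and less RNA of a gene per cell cannot be told apart.

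The 5 promoters shown here allow members with high and low changes to be compared letter by letter. They have the 3 highest and the 2 lowest log2 changes in rRNA-depleted RNA among members that have a single RefSeq promoter with both motifs upstream of the start. Each is the 250 bases before the RefSeq transcription start in GRCh38.p14, printed 5′ to 3′ on the strand of the gene. Capitals mark every match to the CHR (TTTGAA or TTCGAA) and to CCAAT on either strand, so that TTCAAA and ATTGG are the same motifs read on the other strand. CCNB2, DLGAP5 and CDCA8 rose in knockout-labelled libraries, whereas PLK1 and INCENP had lower levels there. The windows lie at chr15:59104896-59105145 (plus strand), chr14:55191586-55191835 (minus strand), chr1:37692266-37692515 (plus strand), chr16:23678639-23678888 (plus strand) and chr11:62123761-62124010 (plus strand), in the order of the lines.
CCNB2: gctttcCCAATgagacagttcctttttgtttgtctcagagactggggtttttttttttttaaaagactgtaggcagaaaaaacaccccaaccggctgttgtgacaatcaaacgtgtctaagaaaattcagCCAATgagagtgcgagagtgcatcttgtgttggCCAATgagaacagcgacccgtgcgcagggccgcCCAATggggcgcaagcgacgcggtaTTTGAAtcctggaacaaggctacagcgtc
DLGAP5: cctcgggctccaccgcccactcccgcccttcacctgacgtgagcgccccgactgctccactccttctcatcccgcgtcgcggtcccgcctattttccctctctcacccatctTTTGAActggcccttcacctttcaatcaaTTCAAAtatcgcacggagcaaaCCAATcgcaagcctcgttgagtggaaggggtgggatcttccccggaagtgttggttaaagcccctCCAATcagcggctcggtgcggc
CDCA8: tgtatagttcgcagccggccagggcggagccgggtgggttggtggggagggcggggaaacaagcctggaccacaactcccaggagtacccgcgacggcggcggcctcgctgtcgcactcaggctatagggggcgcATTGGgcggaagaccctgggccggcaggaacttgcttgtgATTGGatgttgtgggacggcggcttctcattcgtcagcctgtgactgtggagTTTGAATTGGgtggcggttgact
PLK1: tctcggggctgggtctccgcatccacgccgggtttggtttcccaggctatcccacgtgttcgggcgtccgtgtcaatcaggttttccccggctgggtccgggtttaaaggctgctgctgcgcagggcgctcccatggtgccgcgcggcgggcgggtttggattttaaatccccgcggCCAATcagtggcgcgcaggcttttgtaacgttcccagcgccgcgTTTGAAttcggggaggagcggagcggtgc
INCENP: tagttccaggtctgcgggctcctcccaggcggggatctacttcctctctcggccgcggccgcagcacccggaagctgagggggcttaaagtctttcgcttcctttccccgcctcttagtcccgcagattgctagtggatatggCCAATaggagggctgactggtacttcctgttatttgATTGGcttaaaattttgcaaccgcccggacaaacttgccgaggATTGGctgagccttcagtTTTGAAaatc
The CHR of CCNB2 and that of PLK1 both began at position −29 from the start. DLGAP5 has a further CHR match, TTTGAA, that begins at position 4 after the start and so lies outside the printed bases. In CDCA8 a CHR and a CCAAT box overlapped in a single stretch, TTTGAATTGG.

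These motifs were common among the members. RefSeq promoters, from 250 bases before to 50 after the start, matched 33 of the 40 genes in 43 windows. The CHR was searched only as TTTGAA or TTCGAA. A match was found in 26 of these 33 (78.8%), against 15.2% of 10196 tested genes and 19.5% of all 27305 genes with a promoter. CCAAT was found in 27 (81.8%), against 43.6% and 39.7%, and both motifs in 22 (66.7%), against 6.38% and 7.85%. Counting only genes with a single promoter window, 81.5% of 27 members and 10.9% of 7307 tested genes held such a CHR match.

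The distance of each match from the start was also read, for member promoters alone. Positions in other genes were not read, so no position given here is shown to be particular to the members. Of 41 CHR matches, 28 began within 50 bases of the start on either side, in 22 genes. Of these, 18 began at positions from −50 to −1, in 15 genes. Of 70 CCAAT matches, 44 began at positions from −120 to −40, in 24 genes. Some windows of the same gene overlap, so that a match can count more than once. A match describes these letters in this window and not a bound site.

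**Figure D1:**
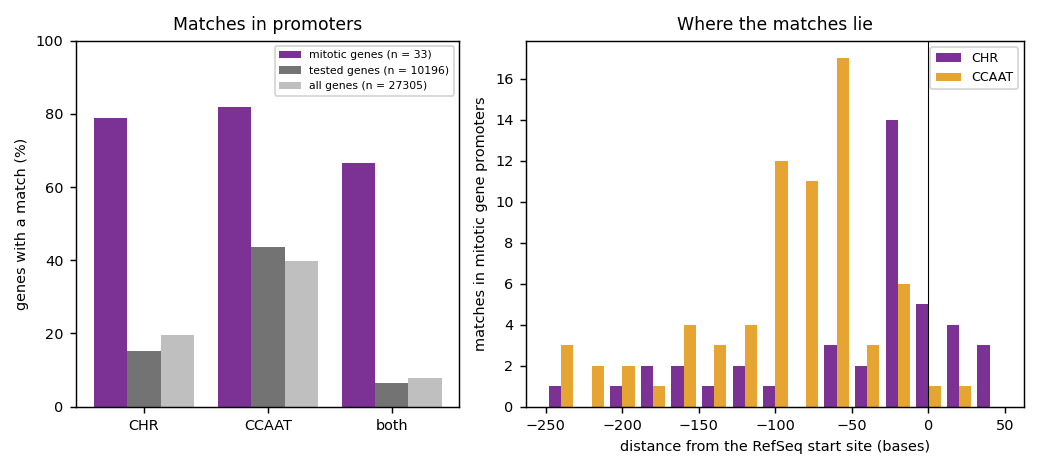
Left, share of genes (%) with a match to the CHR (TTTGAA or TTCGAA), to CCAAT or to both in the RefSeq promoter. Shown are 33 mitotic genes, 10196 tested genes and all 27305 genes. Right, number of matches in mitotic gene promoters by distance (bases) from the RefSeq start in bins of 20 bases, with 28 of 41 CHR matches within 50 bases of the start.

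The 6 rRNA-depleted libraries held between 266157 and 1267171 reads, as recovered from TPM and gene length, and the 2 deepest were knockout-labelled libraries 1 and 2. Those 2 libraries differed by no more than sampling noise (chi-square of 1.02 per degree of freedom, p = 0.065) and were averaged and counted as 1 sample, giving 2 knockout-labelled samples to set against 3 of wild type. Nothing in the labels says that replicates came from separate cultures, so p-values here measure the spread between these samples, which may be technical. METTL3 transcript was not lower in the libraries labelled knockout, with 31.2, 31.6 and 25.4 TPM in wild type and 39.2, 39.96 and 42.7 TPM under the knockout label. Its log2 change was 0.48 (SE 0.19, limma adjusted p = 0.106, two-sided exact permutation p = 0.2, the smallest that 3 samples against 2 can give). A transcript can persist after an edit of the gene, so this level does not check the genotype label by itself. Of 13 microglial markers, 9 were listed at 0 in all 6 libraries (AIF1, C1QA, CX3CR1, ITGAM, P2RY12, PTPRC, SPI1, TMEM119 and TYROBP), and the 13 summed to between 47.0 and 67.3 TPM in wild type and between 65.4 and 90.6 TPM in knockout-labelled libraries. Fibroblast markers summed to between 10826 and 13282 TPM in wild type and between 3407 and 3569 TPM in knockout-labelled libraries, with LUM at 0. The sum followed COL1A1, which had a mean of 10669 TPM in wild type and 819 TPM in knockout-labelled samples. Of 6 tested fibroblast markers 3 fell and 2 rose, against 12.4% and 22.9% of all genes tested. VIM was among those that rose, with 477 and 2242 TPM. Neural markers summed to at most 4.66 TPM. Whether these differences bear on the mitotic genes was not tested.

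Most mitotic genes had higher levels in the knockout-labelled rRNA-depleted libraries. By limma on log2(TPM + 1), at a Benjamini-Hochberg adjusted p under 0.05 over 14789 genes, 30 of the 40 (75%) rose, against 22.9% of all genes tested. PLK1 and PTTG1 fell, against 12.4% of all genes tested. Together 32 of the 40 changed, against 35.3% of all genes. The other 8 did not pass the threshold: CCNA2, AURKB, INCENP, TPX2, BUB3, MAD2L1, UBE2C and NDC80. All 40 were at 1 TPM or more in every library, so all 40 were tested. The median log2 change of the 40 was 1.50, and that of all genes tested was 0.41. Relative to that shift the median mitotic gene was 1.09 higher on the log2 scale. The changes themselves ran from −1.01 (PLK1) to 3.90 (TTK).

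The groups did not overlap for most members. All 3 knockout-labelled libraries were above all 3 wild-type libraries for 32 members, against 38.4% of all genes tested. They were below for PLK1, INCENP and PTTG1, against 19.9%, and the remaining 5 members overlapped, so that 35 had groups apart, against 58.4% of all genes. The TPM of the 40 summed to between 4318 and 4826 in wild type and between 7811 and 8563 in the knockout-labelled libraries. With knockout-labelled library 3 left out, 18 members rose and 0 fell in a fit where the lone knockout sample is assumed to vary like the wild type, against 6.79% and 4.46% of all genes in that fit. The 12 rises lost there were those of CDK1, CCNB2, CDC25B, CDC25C, AURKA, CDCA8, BUB1, BUB1B, NUF2, CENPA, CENPE and HMMR. With each library scaled by the median ratio over genes instead of to its TPM total, the median change of all genes moved from 0.41 to 0.11, 25 members rose and 4 fell, and of all genes 15.98% were then higher and 16.9% lower. The 5 rises lost with that scaling were those of CDC25B, AURKA, BIRC5, NUF2 and HMMR.

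Levels were less spread among the members in the knockout-labelled libraries. In wild type the highest mean was 709 TPM (TPX2) and the lowest 2.14 TPM (TTK), a level at the limit of counting. With TTK left out the wild-type means spanned 97.1-fold. In the knockout-labelled libraries the highest was 711 TPM (TPX2) and the lowest 35.8 TPM (CENPE), 19.9-fold apart. The median of the 40 mean levels was 57.98 TPM in wild type and 154 TPM in knockout-labelled libraries. The spread over all genes was not computed, so the narrowing is not shown to be particular to these genes. Against the poly(A) mean count per kb, pooled over genotypes, member levels had a Spearman's rho of 0.44 in wild type and 0.71 in knockout-labelled samples. Over 12452 genes in both library types, rho was 0.50 in wild type and 0.74 in knockout-labelled samples. Members with low wild-type levels changed most, with Pearson's r of −0.77 and Spearman's rho of −0.72 between the log2 wild-type level and the log2 change across the 40 genes. The wild-type level enters both quantities, so part of this relation is built in. Wild-type reads were few for some of these genes, between 1 and 403 per member and library, and 8 members had fewer than 20 reads in every wild-type library (CCNB2, CDC25C, CDCA8, TTK, NUF2, CENPA, CENPE and DLGAP5).

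**Figure D2:**
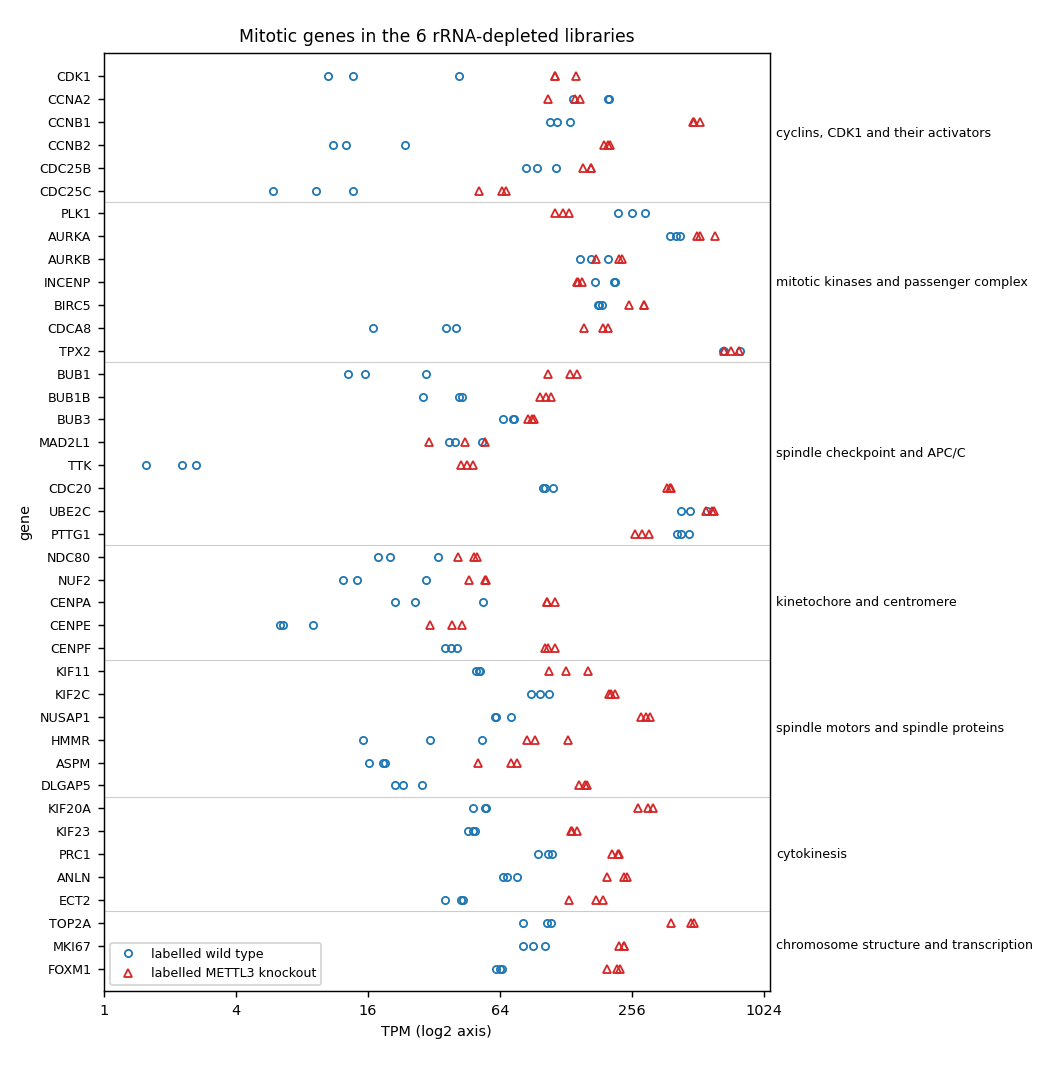
TPM (log2 axis) of the 40 mitotic genes in each rRNA-depleted library, with circles for the 3 wild-type and triangles for the 3 knockout-labelled libraries, grouped by role. The triangles lie to the right of all circles for 32 genes and to the left for PLK1, INCENP and PTTG1.

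The cyclins, CDK1 and their activators had the largest median log2 change of the 7 roles, 2.35. Of the 6, 5 rose, against 22.9% of all genes tested. CDK1 (chr10:60778331-60794852 in GENCODE 29 on GRCh38, the source of all gene positions given), the kinase itself, was at 41.4, 10.5 and 13.7 TPM in wild type, whereas knockout-labelled libraries had 142, 114 and 113 TPM. The wild-type libraries differed widely, and all 3 were below every knockout-labelled library. The log2 change of CDK1 was 2.65 (SE 0.58, limma adjusted p = 0.0215). CCNB1 (chr5:69167010-69178245), which encodes cyclin B1, was at 116, 134 and 108 TPM in wild type and 489, 518 and 485 TPM in knockout-labelled libraries. Both groups were tight, and its log2 change was 2.05 (SE 0.13, limma adjusted p = 0.00116). CCNB2 (chr15:59105078-59125045), which encodes cyclin B2, was at 12.6, 11.1 and 23.5 TPM in wild type and 197, 189.7 and 203 TPM in knockout-labelled libraries. Its log2 change of 3.64 (SE 0.34, limma adjusted p = 0.00239) was the second largest of the 40.

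The phosphatases that activate CDK1 also rose. CDC25C was at 9.3, 13.6 and 5.89 TPM in wild type and 64.9, 51.2 and 67.8 TPM in knockout-labelled libraries, and its log2 change was 2.66 (SE 0.37). CDC25B was at 115, 83.96 and 94.4 TPM in wild type and 165, 166 and 153 TPM in knockout-labelled libraries, and its log2 change was 0.71 (SE 0.16). CDC25B did not pass with median ratio scaling (0.36, adjusted p = 0.129), without wild-type library 3 (adjusted p = 0.063) or without knockout-labelled library 3 (adjusted p = 0.138). CCNA2 (chr4:121816444-121823933), which encodes cyclin A2, the partner of CDK2 in S phase and of CDK1 in G2, was the exception among the cyclins. It stood at 197, 137 and 201 TPM in wild type and 149, 141 and 106 TPM in knockout-labelled libraries. The groups overlapped, and the log2 change of −0.50 (SE 0.23) had a limma adjusted p of 0.154. CCNA2 passed the threshold as lower when libraries were scaled by the median ratio (−0.85), when the trend with GC content was removed (−0.91) and with voom on recovered reads (−0.71).

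The mitotic kinases and the chromosomal passenger complex moved least, with a median log2 change of 0.23. PLK1 (chr16:23677656-23690367), the polo-like kinase that acts from mitotic entry to cytokinesis, stood at 292, 219.6 and 254 TPM in wild type and 113, 124 and 132 TPM in knockout-labelled libraries. All knockout-labelled libraries were below all wild-type libraries, and the log2 change was −1.01 (SE 0.15, limma adjusted p = 0.00722). PLK1 did not pass the threshold when the trend with GC content was removed (−0.42, adjusted p = 0.078) or without knockout-labelled library 3 (−1.09, adjusted p = 0.074). AURKA, the Aurora kinase of centrosomes and spindle poles, was at 406, 382 and 421 TPM in wild type and 523, 613 and 505 TPM in knockout-labelled libraries. Its rise was small (log2 0.41, SE 0.10, limma adjusted p = 0.0324), close to the median of all genes, and it lost the call in 8 of 16 alternatives. TPX2, the spindle protein that activates Aurora A, had 792, 666 and 669 TPM in wild type and 781, 723 and 670.0 TPM in knockout-labelled libraries. Its groups overlapped, and its log2 change of 0.01 (SE 0.12) was below 0 under several other settings, to −0.35 with median ratio scaling.

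The passenger complex, which joins Aurora B to INCENP, survivin and borealin at centromeres and later at the midzone, was split. CDCA8 (borealin, chr1:37692418-37709719) was at 40.2, 16.8 and 36.4 TPM in wild type and 155, 199 and 188 TPM in knockout-labelled libraries. Its log2 change was 2.61 (SE 0.39, limma adjusted p = 0.00743), and no library overlapped. BIRC5 (survivin) was at 180.1, 179 and 187 TPM in wild type and 289, 289 and 247 TPM in knockout-labelled libraries, and its log2 change was 0.55 (SE 0.11, limma adjusted p = 0.0164). With median ratio scaling it was 0.20 (adjusted p = 0.189). The scaffold INCENP was at 173, 213 and 211 TPM in wild type and at 145, 151 and 143 TPM in knockout-labelled libraries. The INCENP groups did not overlap, but its log2 change of −0.44 (SE 0.13, limma adjusted p = 0.0524) missed the threshold. INCENP passed as lower in 6 of 16 alternatives, among them median ratio scaling (−0.80, adjusted p = 0.0125), and was 0.18 with the GC trend removed. The kinase AURKB was at 199, 148 and 166 TPM in wild type and 223, 229 and 176 TPM in knockout-labelled libraries. Its groups overlapped, and its log2 change of 0.23 (SE 0.18) became −0.12 with median ratio scaling.

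In the spindle checkpoint and the APC/C, 4 of 8 members rose and PTTG1 fell, against 22.9% and 12.4% of all genes tested. BUB1 (chr2:110637698-110678114), the kinase that recruits checkpoint proteins to kinetochores, was at 29.4, 15.4 and 12.9 TPM in wild type and 144, 133 and 106 TPM in knockout-labelled libraries, and its log2 change was 2.68 (SE 0.38, limma adjusted p = 0.00629). BUB1B (BUBR1), part of the inhibitor of the APC/C, was at 28.5, 41.6 and 42.8 TPM in wild type and 103, 109.5 and 96.7 TPM in knockout-labelled libraries, and its log2 change was 1.43 (SE 0.22, limma adjusted p = 0.00812). TTK (chr6:80003887-80042527), the MPS1 kinase that starts checkpoint signalling, was at 1.55, 2.26 and 2.61 TPM in wild type and 48.3, 42.5 and 45.1 TPM in knockout-labelled libraries. The wild-type values of TTK rested on 1, 1 and 2 reads, so its level there is at the limit of counting. Set against 3 reads per wild-type library it was at least 8.85-fold higher in the knockout-labelled libraries, and the fitted change of 3.90 is not a bound. With TTK at that bound the median change of the 40 genes was still 1.50.

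The remaining checkpoint components moved little. BUB3, which carries BUB1 and BUBR1 to kinetochores, was at 73.4, 66.1 and 73.6 TPM in wild type and 91.3, 89.1 and 85.6 TPM in knockout-labelled libraries. Those groups did not overlap, but the log2 change of 0.30 (SE 0.12, limma adjusted p = 0.114) did not pass and was −0.046 with median ratio scaling and −0.14 with the GC trend removed. MAD2L1 (MAD2), the protein that binds and sequesters CDC20, was at 52.99, 39.6 and 37.5 TPM in wild type and 44.3, 54.8 and 30.3 TPM in knockout-labelled libraries. Its groups overlapped, and its log2 change was −0.14 (SE 0.28).

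CDC20 (chr1:43358955-43363203), the APC/C activator and target of the checkpoint, was at 101, 112 and 103 TPM in wild type and 383, 367 and 380.3 TPM in knockout-labelled libraries. These were among the tightest groups of the 40, and the log2 change was 1.84 (SE 0.10, limma adjusted p = 0.00105). UBE2C, the ubiquitin-conjugating enzyme that works with the APC/C, was at 468, 426 and 563 TPM in wild type and 553, 601 and 593 TPM in knockout-labelled libraries. Its groups overlapped, and its log2 change of 0.28 (SE 0.14, limma adjusted p = 0.188) was −0.079 with median ratio scaling. PTTG1 (securin, chr5:160421822-160428744), the inhibitor of separase that the APC/C destroys, was at 464, 427 and 407 TPM in wild type and 285, 305 and 263 TPM in knockout-labelled libraries. All knockout-labelled libraries were below all wild-type libraries. Its log2 change was −0.63 (SE 0.11, limma adjusted p = 0.0111), and it missed the threshold without knockout-labelled library 3 (adjusted p = 0.086).

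All 5 kinetochore and centromere genes were higher in every knockout-labelled library than in every wild-type library, against 38.4% of all genes tested. Of the 5, 4 passed the threshold as higher, against 22.9%. CENPA, the histone H3 variant that marks centromeres, was at 53.6, 26.1 and 21.1 TPM in wild type and 113, 105 and 104 TPM in knockout-labelled libraries. The motor CENPE, which moves chromosomes to the spindle equator, was at 9.0, 6.57 and 6.34 TPM in wild type and 38.7, 42.9 and 30.8 TPM in knockout-labelled libraries. CENPF, a large protein of the outer kinetochore, was at 35.7, 38.1 and 40.5 TPM in wild type and 114, 102 and 106 TPM in knockout-labelled libraries. Their log2 changes were 1.75 (SE 0.40), 2.15 (SE 0.32) and 1.46 (SE 0.13), with limma adjusted p of 0.025, 0.00694 and 0.00235. NDC80 and NUF2 form 1 arm of the complex that grips microtubules. NUF2 was at 29.5, 12.3 and 14.2 TPM in wild type and 54.8, 54.6 and 46.1 TPM in knockout-labelled libraries, and its log2 change was 1.48 (SE 0.41, limma adjusted p = 0.041) that lost the call in 8 of 16 alternatives. NDC80 was at 17.7, 20.1 and 33.3 TPM in wild type and 48.4, 50.2 and 41.3 TPM in knockout-labelled libraries, and its log2 change of 0.95 (SE 0.32, limma adjusted p = 0.0696) did not pass.

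All 6 genes of spindle motors and spindle proteins rose, against 22.9% of all genes tested. Their median log2 change was 1.73. DLGAP5 (HURP, chr14:55148112-55191678), which stabilizes kinetochore microtubules, was at 23.2, 28.2 and 21.2 TPM in wild type and 159, 155 and 146 TPM in knockout-labelled libraries. NUSAP1, which bundles spindle microtubules, was at 71.4, 61.2 and 60.4 TPM in wild type and 279.8, 294 and 308 TPM in knockout-labelled libraries. The 2 genes had log2 changes of 2.61 (SE 0.18) and 2.19 (SE 0.13), with limma adjusted p of 0.00125 and 0.00105, and neither group overlapped. KIF11, the motor that pushes the spindle poles apart, was at 49.6, 51.1 and 51.7 TPM in wild type and 160.0, 127 and 106 TPM in knockout-labelled libraries. The microtubule depolymerase KIF2C was at 107, 87.99 and 96.9 TPM in wild type and 199, 213 and 204 TPM in knockout-labelled libraries. Both had smaller rises, with log2 changes of 1.27 (SE 0.17) and 1.07 (SE 0.12). ASPM, a spindle pole protein, was at 18.8, 16.1 and 19.2 TPM in wild type and 72.01, 76.6 and 50.8 TPM in knockout-labelled libraries, and its log2 change was 1.72 (SE 0.24). HMMR, a spindle protein also known as a hyaluronan receptor, varied most of the 6, at 30.6, 52.6 and 15.2 TPM in wild type and 85.2, 130.1 and 91.9 TPM in knockout-labelled libraries. Its log2 change of 1.74 (SE 0.51, limma adjusted p = 0.0486) lost the call in 8 of 16 alternatives.

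All 5 cytokinesis genes rose, against 22.9% of all genes tested, and their log2 changes ran from 1.06 to 2.44. For all 5, every knockout-labelled library was above every wild-type library, against 38.4% of all genes tested. KIF20A (chr5:138178719-138187715), the motor that carries the passenger complex to the midzone, was at 48.3, 54.9 and 54.5 TPM in wild type and 317, 301 and 272 TPM in knockout-labelled libraries, and its log2 change was 2.44 (SE 0.13, limma adjusted p = 0.00094). KIF23, the motor of the centralspindlin complex, was at 48.9, 45.4 and 47.9 TPM in wild type and 136, 143 and 135 TPM in knockout-labelled libraries, and its log2 change was 1.51 (SE 0.12). PRC1, which bundles the antiparallel microtubules of the midzone, was at 94.9, 111 and 106 TPM in wild type and 207, 220.1 and 222 TPM in knockout-labelled libraries, and its log2 change was 1.06 (SE 0.12). These 3 genes act on the same structure, and their wild-type libraries lay within a narrow range of each other. ECT2, the exchange factor that activates RhoA at the division plane, was at 42.5, 43.3 and 35.9 TPM in wild type and 189, 174 and 132 TPM in knockout-labelled libraries, and its log2 change was 1.91 (SE 0.19). ANLN (anillin), which organizes the contractile ring, was at 76.6, 68.9 and 65.7 TPM in wild type and 243, 235 and 196 TPM in knockout-labelled libraries, and its log2 change was 1.61 (SE 0.14).

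The last 3 genes act on chromosome structure and on transcription, and all rose, against 22.9% of all genes tested. TOP2A (chr17:40388516-40417950), the topoisomerase that untangles sister chromatids, was at 109, 104 and 80.9 TPM in wild type and 491, 476 and 385 TPM in knockout-labelled libraries, and its log2 change was 2.14 (SE 0.18, limma adjusted p = 0.00204). MKI67, which coats mitotic chromosomes and is the Ki-67 proliferation marker, was at 103, 81.6 and 90.7 TPM in wild type and 234, 235 and 222 TPM in knockout-labelled libraries, and its log2 change was 1.31 (SE 0.14, limma adjusted p = 0.00292). FOXM1 (chr12:2857681-2877155), a transcription factor of the G2 and M programme, was at 63.6, 65.5 and 61.1 TPM in wild type and 196, 218 and 224 TPM in knockout-labelled libraries, and its log2 change was 1.75 (SE 0.11, limma adjusted p = 0.00124). The groups were apart for all 3, against 58.4% of all genes tested, and all 3 calls held in all 16 alternatives.

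In poly(A) RNA the changes were small and went both ways. The authors' deposited table had 15 of the 40 mitotic genes higher at its adjusted p under 0.05, against 9.55% of 14009 genes, and 7 lower, against 10.3%. The other 18 did not pass. The median log2 fold change of the 40 in the authors' deposited table was 0.15, with a range from −0.86 (UBE2C) to 0.66 (HMMR). No member reached a log2 change of 1 in either direction there. The median size of the change, regardless of sign, was 0.22 for the members and 0.33 for all genes in the authors' deposited table.

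**Figure D3:**
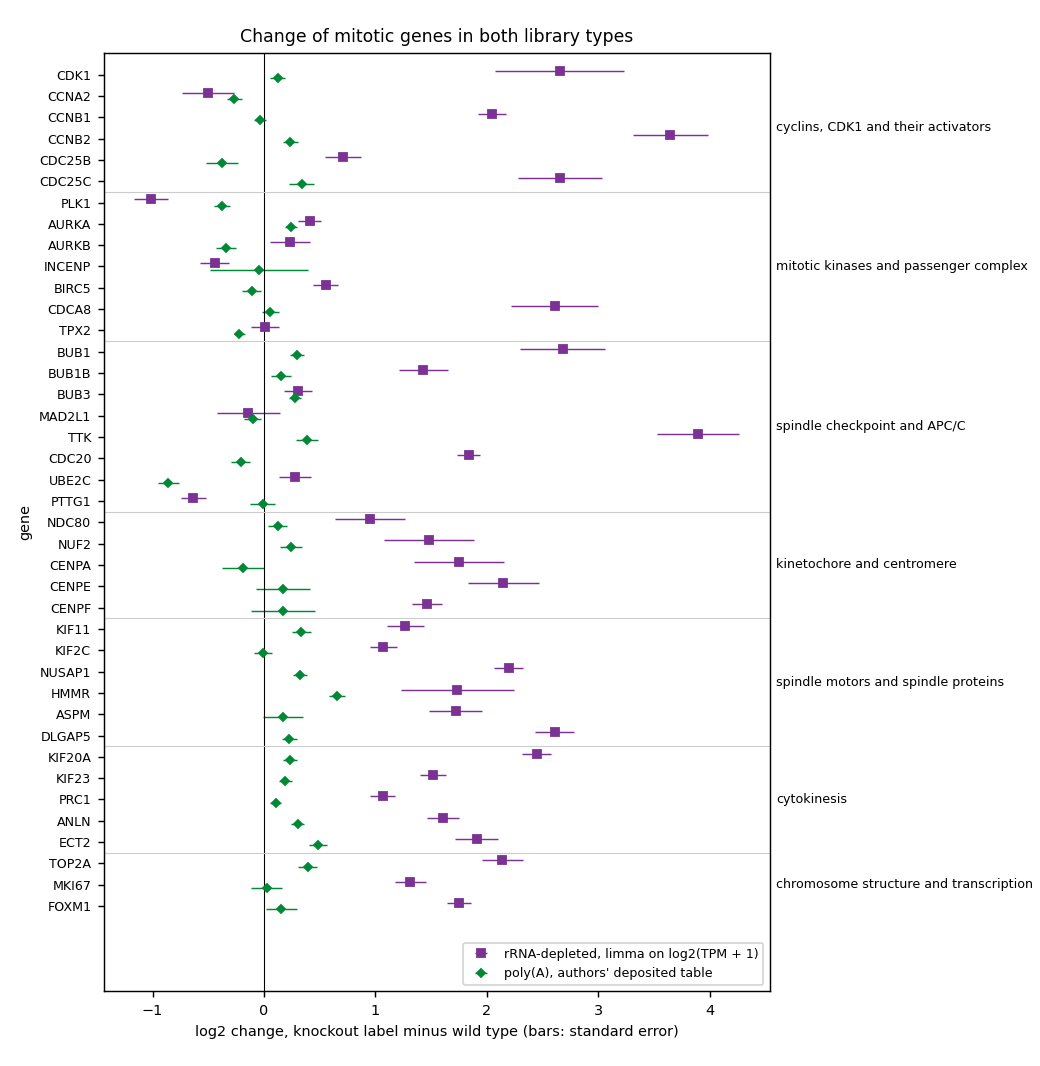
Log2 change (knockout label minus wild type, bars are standard errors) of each mitotic gene in rRNA-depleted RNA (squares, limma) and in poly(A) RNA (diamonds, the authors' deposited table). Squares range from −1.01 to 3.90 and diamonds from −0.86 to 0.66.

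Among the genes called higher by the authors' deposited table, HMMR (log2 0.66, SE 0.07, adjusted p = 1.31e-18), ECT2 (0.48, SE 0.08, adjusted p = 9.09e-08), TOP2A (0.39, SE 0.09, adjusted p = 8.69e-05) and TTK (0.39, SE 0.10, adjusted p = 0.00121) had the largest values. By role, the authors' deposited table called 4 of 6 spindle motors and spindle proteins higher, against 9.55% of all genes. It also called 4 of 5 cytokinesis genes higher. Of these 11 genes it called 0 lower, against 10.3% of all genes. It called none of the 5 kinetochore genes, against 19.9% of all genes called either way. NUF2 came nearest of these to the threshold in the authors' deposited table, with 0.24 (adjusted p = 0.0764).

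The 7 genes called lower by the authors' deposited table were CCNA2, CDC25B, PLK1, AURKB, TPX2, CDC20 and UBE2C. UBE2C had the largest fall, −0.86 (SE 0.09, adjusted p = 1.69e-17 in the authors' deposited table), whereas its rRNA-depleted TPM did not pass the threshold. PLK1 fell in both library types, with −0.38 (SE 0.07, adjusted p = 6.71e-06) in the authors' deposited table. CDC20 (−0.21, SE 0.08, adjusted p = 0.048) and CDC25B (−0.38, SE 0.14, adjusted p = 0.0396) were lower in the authors' deposited table and rose in rRNA-depleted RNA. PTTG1, lower in rRNA-depleted RNA, had −0.01 (SE 0.11) in the authors' deposited table.

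Of the 30 genes that rose in rRNA-depleted RNA, 14 were also higher in the authors' deposited table, 14 did not pass there and 2 were lower. Of all genes there 9.55% were higher and 10.3% lower. The shares among all genes that rose in rRNA-depleted RNA were not computed. BUB3 was higher in the authors' deposited table (0.28, SE 0.05) and did not pass in rRNA-depleted RNA. The sign was opposite in the 2 library types for 9 of the 40, against 42.5% of 12498 genes measured in both. The orientation of the authors' deposited table was itself chosen by shared sign, and with wild type as its numerator these would be 31 of the 40 and 57.5%. CCNB1 and CDK1 show the difference in size. CCNB1 had −0.04 (SE 0.05) and CDK1 had 0.12 (SE 0.07) in the authors' deposited table, with changes of 2.05 and 2.65 in rRNA-depleted RNA. Whether the change differed between library types was not tested, since the poly(A) libraries have no values of single libraries here. Across library types the orders of the members were related, with Pearson's r of 0.58 and Spearman's rho of 0.60 between the 2 log2 changes across the 40 genes, or −0.58 and −0.60 with the other numerator. Over the 12498 genes measured in both, with the numerator as taken, r was 0.20 and rho was 0.19. Genes are not independent replicates, and the 2 library types differ in chemistry, depth and unit.

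**Figure D4:**
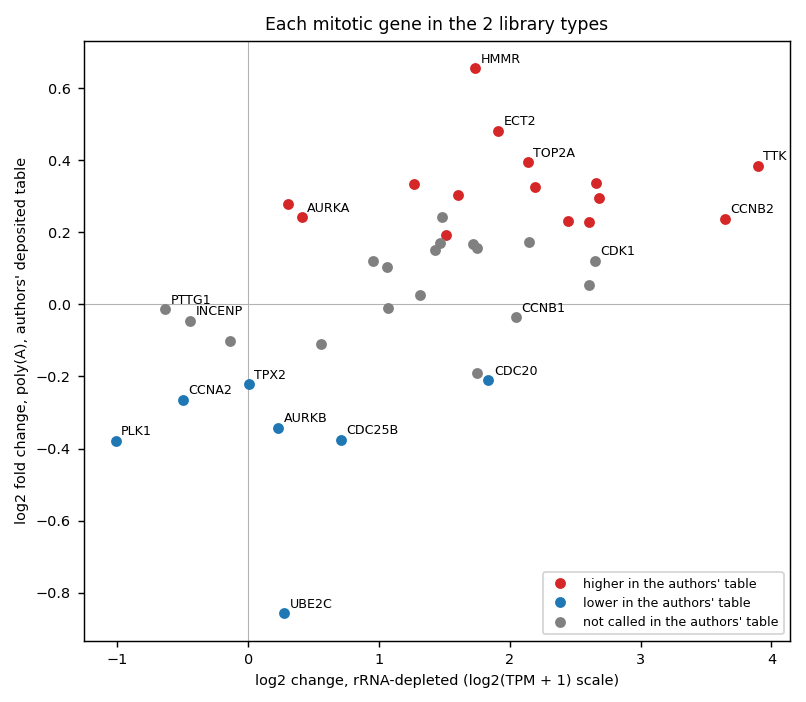
Log2 change of each mitotic gene in rRNA-depleted RNA (horizontal axis) against its log2 fold change in the authors' deposited poly(A) table (vertical axis), coloured by the call in that table. Genes such as CDC20 and CDC25B lie right of 0 and below 0, and PLK1 lies left of 0 and below 0.

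The change in rRNA-depleted RNA went with the GC content of the transcript across all genes. The median log2 change of all tested genes was 1.24 in the lowest of 10 equal bins of genes by GC content and −0.41 in the highest bin. The mitotic genes had a median GC content of 43.2%, against 48.5% for all tested genes. Of the 40, 30 lay above the median of the genes of their own bin, by 0.57 at the median of all 40. The 10 below it were CCNA2, PLK1, AURKA, INCENP, TPX2, BUB3, MAD2L1, UBE2C, PTTG1 and NDC80. With the trend removed from each library, 28 members rose, 27 of them among the 30, and PTTG1 and CCNA2 fell, against 23.7% and 9.59% of all genes in that fit. PLK1 no longer passed. The median of the 40 exceeded that of all genes by 0.56 in place of 1.09. Across the 40 genes Pearson's r between GC content and log2 change was −0.39 in rRNA-depleted RNA and −0.61 with the authors' deposited table. The part of GC content in these changes was not tested.

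**Figure D5:**
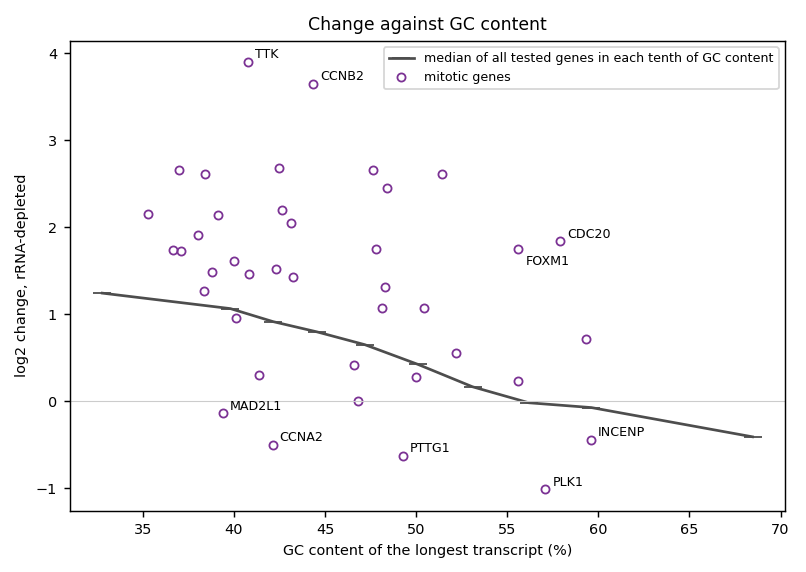
Log2 change in rRNA-depleted RNA against GC content (%) of the longest transcript for the 40 mitotic genes (circles), with the median of all tested genes in each of 10 bins of GC content (line). The line falls from 1.24 to −0.41, and 30 of the circles lie above the median of their bin.

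Several members share exons or near-identical copies with other genes, and the sources used here do not state whether the authors' counting used strand. Exons of 15 members overlap those of another gene in GENCODE 29, on the other strand for 12. NUSAP1 and PRC1 overlap a readthrough transcript on their own strand over more than 20% of their exons. Neither readthrough gene is among the genes with deposited TPM. How reads there were counted is not stated, so the values of NUSAP1 and PRC1 stay uncertain. For 9 members the tables list 14 named copies or pseudogenes, of which 12 were at 0 in all libraries and the highest reached 13.9 TPM.

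Matches to the motif GGACT, one form of the sequence context in which m6A is laid down, were sparser in the mitotic genes than in tested genes at the median. Their longest transcripts held a median of 0.638 matches per kb, from 0.209 (ANLN) to 4.13 (CENPA), against 0.892 for 14669 tested genes. The density was not adjusted for GC content, which was lower at the median in the mitotic genes than in all tested genes. A match is not a methylated site, and m6A itself was not measured in these libraries.

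The rest of the mitotic machinery was read from gene lists drawn up by function, and each change given for it is a log2 change in rRNA-depleted RNA unless the authors' deposited table is named. Of the 8 condensin subunits, which compact mitotic chromosomes, 7 rose and 1 fell in rRNA-depleted RNA, against 22.9% and 12.4% of all genes tested. Their median log2 change was 1.14, and 4 rose with median ratio scaling, against 15.98% of all genes. NCAPG (34.3 ± 6.54 TPM, SD, n = 3, against 147 ± 9.57, SD, n = 2) had the largest change, 2.09 (SE 0.20). SMC2 and SMC4, the paired ATPases of condensin, rose by 1.65 and 1.55. Of 14 cohesin and separase genes, which hold and release sister chromatids, 8 rose and 0 fell, against 22.9% and 12.4% of all genes tested. With the GC trend removed 5 rose, against 23.7% of all genes in that fit. Fewer rose without knockout-labelled library 3, a fit in which fewer of all genes passed too. The cohesin subunit RAD21 had 33.4 ± 4.37 TPM in wild type (SD, n = 3) against 169 ± 24.5 TPM in knockout-labelled samples (SD, n = 2), and rose by 2.30 (SE 0.18). SGO2, the protector of centromeric cohesin, and PDS5A, a cohesin regulator, rose by 2.11 and 1.77. SGO2 rested on at most 9 reads in a wild-type library.

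Kinetochore and checkpoint genes outside the 40 were mixed. Of 30, 7 rose and 3 fell, against 22.9% and 12.4% of all genes tested. Their median log2 change was 0.51, close to the 0.41 of all genes. The largest changes among those called were 2.97 (SE 0.53) for ZWILCH, of the complex that brings dynein to kinetochores, 2.04 (SE 0.24) for CENPU and 1.85 (SE 0.36) for SKA2. ZWILCH rested on at most 5 reads in a wild-type library and CENPU on at most 7. Of the 30, 1 was higher and 8 were lower in the authors' deposited table, against 9.55% and 10.3% of all genes there. The APC/C list held 17 genes, with its coactivator FZR1, the conjugating enzyme UBE2S and the inhibitor FBXO5 included. Of the 17, 5 rose and 3, UBE2S among them, fell, against 22.9% and 12.4% of all genes tested. The largest changes among those called were in the subunits CDC16, CDC27 and ANAPC4, with log2 changes of 2.66, 2.53 and 2.06. ANAPC4 rested on at most 4 reads in a wild-type library and CDC16 on at most 9.

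Of 11 other genes of the spindle and of cytokinesis 6 rose and 0 fell, against 22.9% and 12.4% of all genes tested. CKAP2, a microtubule-associated protein of the spindle, had 8.27 ± 5.19 TPM in wild type (SD, n = 3) against 102 ± 17.4 TPM in knockout-labelled samples (SD, n = 2), and rose by 3.61 (SE 0.50). Its relative CKAP2L rose by 2.77 and the motor KIF18A, which damps chromosome movements, by 2.14. CKAP2 rested on at most 9 reads in a wild-type library, and CKAP2L and KIF18A on at most 11. Of 15 genes that control mitotic entry 4 rose and 2 fell, against 22.9% and 12.4% of all genes tested. CKS2, a small subunit of CDK complexes, had 57.4 ± 10.7 TPM in wild type against 831 ± 165 TPM in knockout-labelled samples (SD, n = 3 and 2), and rose by 3.83 (SE 0.21). That wild-type level rested on at most 6 reads in a library, since the gene is short, and CKS2 had −0.18 (SE 0.13) in the authors' deposited table. The kinases NEK2, of centrosome separation, and HASPIN, of histone H3, rose by 1.92 and 1.34. NEK2 rested on at most 7 reads in a wild-type library and HASPIN on at most 14.

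Regulators of cell cycle transcription were called in 2 of 9 cases for MuvB, B-MYB and NF-Y and in 4 of 12 for pocket proteins and E2F factors, against 35.3% of all genes. Of the 9, 1 rose and 1 fell. NFYA, a subunit of the factor that binds CCAAT boxes, rose by 2.70 (SE 0.48), from at most 7 reads in a wild-type library. MYBL2, which encodes B-MYB, stood at 622, 593 and 660 TPM in wild type and 284, 264 and 281 TPM in knockout-labelled libraries. All its knockout-labelled libraries were lower, and its log2 change was −1.17 (SE 0.09, limma adjusted p = 0.00186), and the authors' deposited table had it lower as well (−0.88, SE 0.16). Of the 12, 3 rose and 1 fell. RB1, the retinoblastoma protein, had the largest change, 2.61 (SE 0.35), from at most 6 reads in a wild-type library. E2F7, a repressor of E2F targets, and TFDP1, the partner of E2F factors, rose by 0.99 and 0.84.

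Genes of earlier cell cycle phases were mixed. Of 7 tested G1 cyclins and kinases 3 rose and 0 fell, against 22.9% and 12.4% of all genes tested. The rises were 2.79 for CCNE2, 1.01 for CDK2 and 0.62 for CCND1, and CCND2 was listed at 0. CCNE2 rested on at most 4 reads in a wild-type library. The cyclin D1 gene CCND1 rose too in the authors' deposited table (1.15, SE 0.11). Of 8 CDK inhibitors 4 fell and 1 rose, against 12.4% and 22.9% of all genes tested. Their median log2 change was −0.65. CDKN2A, which encodes p16 and p14ARF, had 575 ± 104 TPM in wild type (SD, n = 3) against 177 ± 2.78 TPM in knockout-labelled samples (SD, n = 2), and its log2 change was −1.68 (SE 0.17). CDKN2A was lower in the authors' deposited table too (−0.59, SE 0.14). The 1 that rose was CDKN3, a phosphatase of CDK1 and CDK2, at 19.3, 0 and 0 TPM in wild type and 148, 124 and 106 TPM in knockout-labelled libraries, from at most 5 wild-type reads. CDKN2C fell with a log2 change of −1.39 (SE 0.20).

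Genes of DNA replication and nucleotide supply also went both ways. Of 17, 6 rose and 4 fell in rRNA-depleted RNA, against 22.9% and 12.4% of all genes tested. Their median log2 change was 0.04, and 1 rose with median ratio scaling, against 15.98% of all genes. MCM2, a subunit of the replicative helicase, stood at 478, 429 and 473 TPM in wild type and 199.7, 191 and 187 TPM in knockout-labelled libraries, and its log2 change was −1.26 (SE 0.10, limma adjusted p = 0.00176). TYMS, the thymidylate synthase, and MCM10, an initiation factor, rose by 1.19 and 1.01. Of the 17, 1 was higher and 9 were lower in the authors' deposited table, against 9.55% and 10.3% of all genes there. MCM2 was among those lower (−0.40, SE 0.08). The difference between this list and the mitotic genes was not tested.

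The rRNA-depleted changes were last set against the promoter motifs. The median log2 change in rRNA-depleted RNA was 1.66 for the 26 members with a CHR match (TTTGAA or TTCGAA), from −1.01 to 3.64. It was 1.07 for the 7 without a match. No other form of the CHR was searched, so these 7 are not shown to lack one. Of the 26, 22 rose, and PLK1, INCENP, MAD2L1 and NDC80 did not. Of the 7 without a match 4 rose, and of all genes tested 22.9% rose. For CCAAT the median was 1.74 in the 27 members with a match, of which 21 rose, and 1.45 in the 6 without, of which 5 rose.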

How the data were processed

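RNA of HMC3 cells was measured in 16 libraries, whose titles give genotype and library type. The submitters' processing notes list Trimmomatic, STAR, DESeq2 and hg38 with no role or order, and the annotation and use of strand are not given in the sources used here. For rRNA-depleted RNA the authors deposited TPM per library. For poly(A) RNA the authors deposited a table that holds, per the file headers, for each gene the normalized count averaged over libraries (a pooled signal), log2 fold change and SE, the Wald score, the p-value and its adjusted form. Its numerator is not stated. Positive was taken as higher in knockout because 91.5% of 177 genes called in both library types, with log2 changes of 1 or more in size, then had the same sign, as did 67.3% of the 1327 genes called in both and 57.5% of all 12498 measured in both. If wild type were the numerator, every direction from that table would be opposite. Values were read as deposited, and 0 columns of sample values were left unused.

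TPM was tested with limma 3.58.1 (R 4.3.3; eBayes with a mean-variance trend) applied to log2(TPM + 1). A gene was tested if 3 or more libraries had 1 TPM or more. Genotype was the only term, with Benjamini-Hochberg adjustment at 0.05. On the log2(TPM + 1) scale the changes of low genes come out too small. Reads were recovered from TPM and exon lengths of GENCODE 29 on GRCh38, which matched 93.8% of the identifiers, and 90.9% of values came out whole to within 0.02 reads. They ranged from 266157 to 1267171 per library, and their number limits the precision of genes with few reads. Libraries of a label were compared by chi-square over genes whose reads in the pair came to 10 or more. Knockout-labelled libraries 1 and 2, the pair that did not differ, were averaged. A mean ± SD is over samples. The floor was 3 reads per library and covers counting error only. The limma step was also run on simulated reads with a uniform spread, few changed genes and no GC trend. These settings differ from the data, so that run does not check the calls made here. Gene positions, lengths, GC content and exon overlaps are from GENCODE 29, and promoters from RefSeq. Python 3.11.15, numpy 2.4.6, pandas 2.3.3, scipy 1.17.1 and matplotlib 3.10.9 were used for the rest.

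The 40 members, the other gene lists and the tests were chosen with earlier results of these data known. Genes named are the 40, METTL3, markers at 0, and in each other list up to 3 called genes with the largest change in rRNA-depleted RNA. COL1A1, VIM, CCND2, FZR1, UBE2S and FBXO5 fall outside this rule and were named after their values were seen. Alternatives were other pseudocounts, filters, scalings, removal of the GC trend, voom on recovered reads, separate libraries, a replicate block and each library left out.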

Additional observations from a re-analysis of the deposited data

How the results depend on the processing

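Over 16 alternatives of the rRNA-depleted fit, 17 of the 32 called members kept their call in all of them and 0 changed direction. Of 32 called genes named from the other lists by size of change, 10 kept their call in all 16 and 0 changed direction. Among these, MCM10 lost its call in 6 and CDKN3 in 5. The count of members that rose lay between 18 and 30 when a library was left out, lowest without knockout-labelled library 3 (6.79% of all genes higher), and the count that fell between 0 and 3. In the latter fit the lone knockout sample is assumed to vary like the wild type. The members that fell numbered 4 with median ratio scaling (16.9% of all genes lower), 5 with voom on recovered reads (23.9% of all genes lower), 1 at an adjusted p under 0.01 and 1 where a log2 change of 1 or more in size was also asked. The median change relative to all genes was 1.0 with a pseudocount of 0.1, 1.34 with quantile normalization, 0.56 with the GC trend removed and 1.21 with voom, and lay between 1.07 and 1.17 with a library left out. With that size asked, the authors' deposited table called 0 members higher and 0 lower. METTL3 passed the threshold with 6 separate libraries (0.46, limma adjusted p = 0.0486). Signs turned for members that were not called: AURKB (−0.12), BUB3 (−0.046), UBE2C (−0.079) and TPX2 (−0.35) with median ratio scaling, INCENP (0.18), BUB3 (−0.14) and TPX2 (−0.13) with the GC trend removed, UBE2C (−0.027) and TPX2 (−0.22, then called) with voom, and, over fits that leave out a library, TPX2 (from −0.037 to 0.089) and MAD2L1 (from −0.23 to 0.20). INCENP passed as lower in 6 alternatives, and CCNA2 as lower and NDC80 as higher in 3 each. The cause of these shifts was not tested. Replicate numbers are shared by the genotypes, but deviations of same-numbered libraries had correlations of 0.02, −0.02 and 0.01, so the numbers do not pair them. A fit with the replicate number as a block gave 31 members that rose and 3 that fell. Few wild-type reads limit the 8 members under 20 reads per wild-type library, and 5 samples limit every test.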
